A study of Mus musculus with 30 samples.

Results

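The expression of 7 genes that mark or serve the interstitial cells of the gut muscle was followed in the mouse small bowel *muscularis externa* (*ME*) after intestinal manipulation (IM), the surgical handling that induces post-operative ileus (POI). The genes are *Kitl*, *Kit*, *Ano1*, *Hcn4*, *Etv1*, *Pdgfra* and *Kcnn3*. The rule lists them by name and sets no threshold on a measured value. All 7 were found among the 24601 genes of the *ME* table and among the 26179 genes of the *RiboTag* tables, and all 7 passed the low-count filter in every comparison. Total *ME* RNA was sequenced from 3 naïve mice, 3 mice at 3 h after IM (IM3h), 4 mice at 24 h (IM24h) and 4 mice at 72 h (IM72h). The *RiboTag* fraction, mRNA bound to HA-tagged ribosomes that were immunoprecipitated from the same kind of tissue lysate, was tabulated for 3 naïve libraries and for 4 libraries at each time after IM.

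All mice carried the *Rpl22* allele Rpl22tm1.1Psam, which gains an HA tag where a Cre recombinase is active. According to the labels, the naïve and IM3h *ME* mice carried the Cre line B6.Cg-Tg73.12Mvs/J, driven by the *Gfap* promoter, whereas the IM24h and IM72h *ME* mice and every *RiboTag* mouse carried Tg(Sox10-icre/ERT2)388Wdr/J, a tamoxifen-dependent Cre under *Sox10* control. The later *ME* time points therefore differed from naïve *ME* in both IM and Cre line, and these cannot be told apart. IM72h against IM24h is the *ME* comparison after IM that stays within one Cre line. The methods describe male mice between 10 and 12 weeks old, given tamoxifen on 3 consecutive days about a week before the experiment. *Sox10* is a glial gene in this tissue, so the tagged ribosomes mark enteric glia rather than interstitial cells.

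Interstitial cells of Cajal (ICC) are the electrical pacemakers of the gut. They depend on the receptor tyrosine kinase Kit and on its ligand, stem cell factor, which is encoded by *Kitl* and made by neighbouring cells. Calcium released inside ICC opens the chloride channel Ano1, and the resulting current spreads through gap junctions to smooth muscle as slow waves. A second interstitial cell type carries the receptor Pdgfra and the small-conductance calcium-activated potassium channel Kcnn3, through which purinergic nerves relax the muscle. POI is a state in which this motility fails after abdominal surgery.

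The *ME* libraries held between 6603170 and 12866062 estimated counts and the *RiboTag* libraries between 3010306 and 7899493. One transcript listed under the symbol AY036118 took 16.1 to 33.5% of the counts in naïve *ME* libraries, 24.1 to 25.2% at IM3h, 1.33 to 6.5% at IM24h and 2.34 to 3.69% at IM72h. In the *RiboTag* libraries it took 2.68 to 13.98% in naïve mice, 2.02 to 10.28% at IM3h, 22.2 to 59.2% at IM24h and 58.0 to 80.1% at IM72h. Levels are given as CPM, the counts relative to a common library size, after trimmed-mean (TMM) scaling, and the libraries of a group are numbered in name order. All 8 glial markers examined were higher in naïve *RiboTag* than in naïve *ME* RNA, with a median log2 difference of 3.33. The summed level of these 8 markers was 1584 to 1911 CPM in naïve *RiboTag* libraries, 1375 to 2869 CPM at IM3h, 788 to 961 CPM at IM24h and 953.5 to 1461 CPM in 3 of the 4 IM72h libraries, but 143.8 CPM in IM72h *RiboTag* library 2, which thus stood apart from its label. At least 3 of the 8 glial markers were at 0 in each IM72h *RiboTag* library.

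The upstream sequences are shown for *Kit* and *Pdgfra*, neighbouring genes on chromosome 5 whose levels took different courses after IM, and for *Ano1*, the member with the most negative log2 change in *ME* at IM72h. On mm10 the annotation places *Pdgfra* at chr5:75152292-75198215 and *Kit* at chr5:75574916-75656722, both on the plus strand, and *Kit* starts 376701 bases beyond the end of *Pdgfra*. *Ano1* spans chr7:144588549-144751974 on the minus strand. Each line below gives the bases before the RefSeq start (GRCm38.p6), 5′ to 3′ on the strand of the gene and outside annotated exons. Capitals mark the GC box GGGCGG, searched on both strands. The windows are chr5:75574737-75574915 (plus) for *Kit*, chr5:75152001-75152250 (plus) for *Pdgfra* and chr7:144738593-144738823 (minus) for *Ano1*. The *Ano1* window lies inside the annotated gene span, since this gene has several annotated starts.
Kit: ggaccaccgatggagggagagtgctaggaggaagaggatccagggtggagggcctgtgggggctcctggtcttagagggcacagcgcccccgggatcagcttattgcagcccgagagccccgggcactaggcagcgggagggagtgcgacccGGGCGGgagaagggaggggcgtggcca
Pdgfra: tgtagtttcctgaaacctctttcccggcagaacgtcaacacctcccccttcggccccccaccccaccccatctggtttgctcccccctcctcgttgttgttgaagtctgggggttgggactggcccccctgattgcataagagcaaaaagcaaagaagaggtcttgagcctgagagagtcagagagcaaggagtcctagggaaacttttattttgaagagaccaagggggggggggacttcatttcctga
Ano1: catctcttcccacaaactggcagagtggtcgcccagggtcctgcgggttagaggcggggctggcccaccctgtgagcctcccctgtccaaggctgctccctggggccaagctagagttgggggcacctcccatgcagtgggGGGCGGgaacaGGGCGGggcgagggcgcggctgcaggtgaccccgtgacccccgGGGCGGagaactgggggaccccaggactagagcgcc

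In the full 250 bases before the start, GGGCGG occurred once for *Kit*, 3 times for *Kitl* with 2 of these overlapping, 4 times for *Ano1* and 2 times for *Hcn4*. It did not occur for *Pdgfra*, *Etv1* or *Kcnn3*, and 32.7% of all 32851 RefSeq promoter windows held it. The windows of *Kit*, *Kitl*, *Ano1* and *Hcn4* had GC contents of 69.2% or more, above the upper quartile of all windows (61.2%), whereas *Pdgfra* had 54.4% and *Kcnn3* 58.8%. Both *Etv1* windows, with 46.4 and 44.4%, were below the overall median of 52.4%. The ETS core CCGGAA, searched because *Etv1* encodes an ETS factor, occurred for *Kitl* and *Hcn4* and in 12.0% of all windows. The letters TATAAA occurred for *Kitl* and *Etv1* and in 12.4% of all windows.

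*Kit*, *Ano1*, *Etv1*, *Pdgfra* and *Kcnn3* fell in total *ME* RNA at IM3h, while *Kitl*, the ligand, rose and *Hcn4* did not pass the test. At IM24h the picture was mixed: *Hcn4* fell, *Pdgfra* was just past the threshold on the higher side, and the other 5 genes did not pass. At IM72h *Kit*, *Kitl*, *Ano1*, *Etv1*, *Hcn4* and *Kcnn3* fell, whereas *Pdgfra* did not pass the test. By edgeR's quasi-likelihood test with Benjamini-Hochberg adjustment over all genes (adjusted p under 0.05, either direction), 6 of 7 members were called at IM3h, where 32.7% of all genes tested were called, 2 of 7 at IM24h, where 29.0% were called, and 6 of 7 at IM72h, where 57.5% were called. At IM24h the number of genes called, 4740, fell by more than 1.5 times without naïve library 1, 2 or 3, to 2790 at the lowest without library 1. The median log2 change of the members was −0.57 at IM3h, −0.35 at IM24h and −0.99 at IM72h, beside medians of all genes of 0.00, 0.02 and 0.02. The 3 comparisons share the same 3 naïve libraries. In bulk RNA, fewer cells of a type and less RNA per cell cannot be told apart. The 4 mesothelial markers, of the cells that line the outer gut wall, summed to 86.68 to 125.5 CPM in naïve *ME*, 1.771 to 11.69 CPM at IM3h, 6.505 to 73.83 CPM at IM24h and 30.17 to 71.41 CPM at IM72h, and at IM3h all 4 were called lower (median −3.51). Of 9 markers of enteric neurons, 1 was lower at IM3h, 2 were lower at IM24h, and 1 was higher and 4 lower at IM72h, while scaling to *Actb*, *Hsp90ab1* and *Rplp1* gave 7, 3 and 8 lower at the 3 times and library total 1 higher and 0 lower at IM24h. Of 5 endothelial markers, 1, 3 and 5 were higher at the 3 times (none, none and 3 when scaled to *Actb*, *Hsp90ab1* and *Rplp1*), and of 5 epithelial markers none was called at IM3h, 3 were lower at IM24h (1 by library total) and 1 was higher at IM72h. The part of these cell types in the members' values was not tested.

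**Figure D1:**
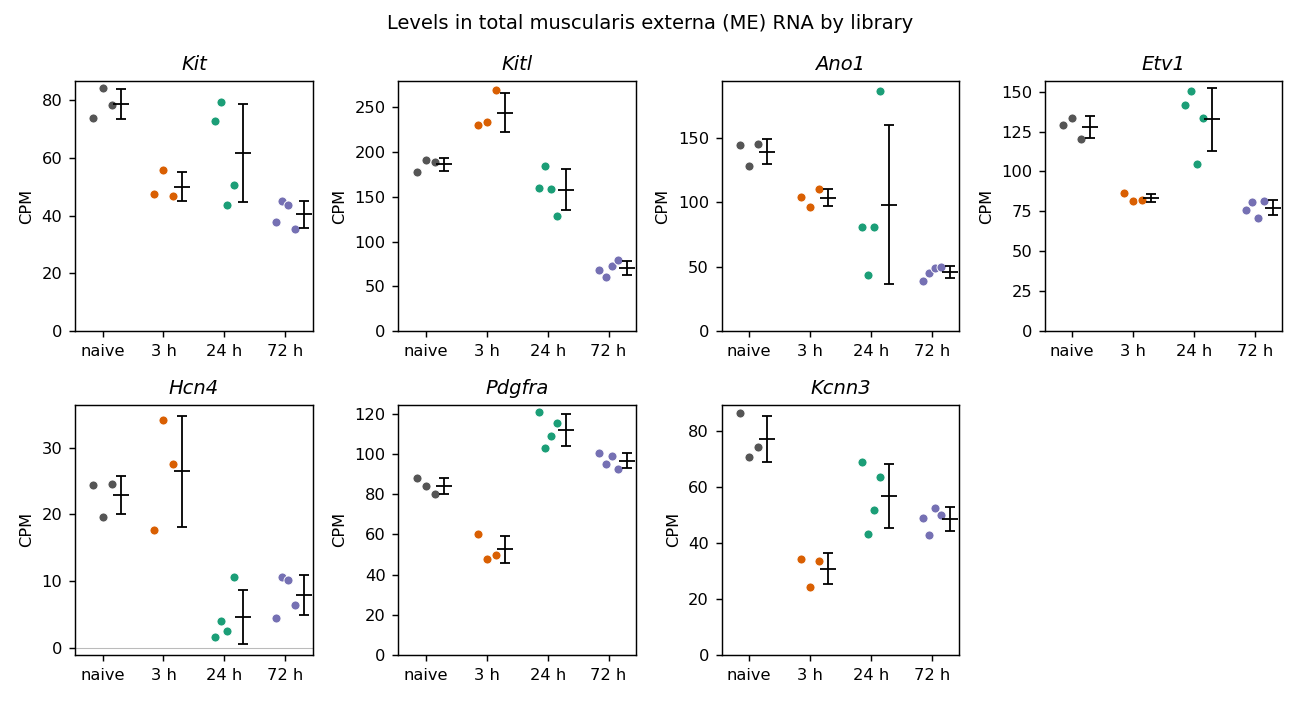
Levels of the 7 genes in total *ME* RNA, in CPM after TMM scaling, 1 panel per gene. Points are single libraries, and the crossbar and error bar beside them are the group mean ± SD, in naïve mice (n = 3) and at IM3h (n = 3), IM24h (n = 4) and IM72h (n = 4). *Kitl* at IM72h lies between 60.74 and 78.98 CPM, below every naïve library, while *Pdgfra* at IM72h lies between 92.43 and 100.7 CPM.

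*Kitl* was measured at 177.7, 191.4 and 188.9 CPM in the naïve *ME* libraries. It stood at 229.4, 233.2 and 268.5 CPM at IM3h, at 159.7, 184, 158.1 and 128.3 CPM at IM24h, and at 67.91, 60.74, 73.22 and 78.98 CPM at IM72h. All IM3h libraries were above, and all IM72h libraries below, the naïve range, whereas the IM24h libraries overlapped it. The log2 change was 0.44 (SE 0.11, edgeR adjusted p = 0.0105) at IM3h, −0.24 (SE 0.15, adjusted p = 0.268) at IM24h and −1.44 (SE 0.12, adjusted p = 3.63e-06) at IM72h. *Kitl* was thus the single member that rose at IM3h and one of those that fell by IM72h. The IM3h rise rested on the scaling and on single libraries: it was 0.18 (adjusted p = 0.347) when counts were divided by the library total and 0.03 (adjusted p = 0.826) when scaled to *Actb*, *Hsp90ab1* and *Rplp1*, and its adjusted p was 0.0709 without naïve library 1 and 0.0517 without naïve library 3.

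*Kit*, the receptor of this ligand, was measured at 73.74, 84.16 and 78.21 CPM in naïve *ME*. It stood at 47.62, 55.93 and 46.71 CPM at IM3h, at 72.9, 79.36, 43.81 and 50.75 CPM at IM24h, and at 37.82, 45.24, 43.55 and 35.36 CPM at IM72h. The IM3h and IM72h libraries all lay below the naïve ones, while at IM24h libraries 1 and 2 were near the naïve level and libraries 3 and 4 near the IM3h level. Relative to naïve *ME* it changed on the log2 scale by −0.60 (SE 0.12, edgeR adjusted p = 0.00409) at IM3h, −0.35 (SE 0.21, adjusted p = 0.242) at IM24h and −0.99 (SE 0.12, adjusted p = 5.28e-05) at IM72h. *Kit* is also carried by mast cells, and the summed level of the 6 mast cell markers in the *ME* table was 0.431 to 1.57 CPM in naïve libraries, 2.54 to 6.20 CPM at IM3h, 3.603 to 11.4 CPM at IM24h and 4.94 to 8.24 CPM at IM72h. Up to 5 of the 6 were at 0 in a single library. Their sum was higher in all groups after IM than in naïve mice, and its part in the *Kit* values was not tested.

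*Ano1*, the calcium-activated chloride channel of ICC, was measured at 144.5, 128.3 and 144.8 CPM in naïve *ME*. It stood at 104.4, 96.36 and 109.9 CPM at IM3h, at 80.63, 43.23, 81.16 and 186.4 CPM at IM24h, and at 39.25, 45.01, 48.69 and 49.99 CPM at IM72h. The groups at IM3h and IM72h did not overlap the naïve group. At IM24h library 4 was above every naïve library and the other 3 were below. The log2 change was −0.38 (SE 0.11, edgeR adjusted p = 0.0210) at IM3h and −1.64 (SE 0.12, adjusted p = 1.62e-06) at IM72h. At IM24h it was −0.51 (SE 0.39, adjusted p = 0.351) with all libraries and −1.03 (adjusted p = 0.00502) without IM24h library 4, and the IM3h call was lost without naïve library 1 (adjusted p = 0.0511). It was also lost with all *ME* libraries in one fit (−0.43, SE 0.33, edgeR adjusted p = 0.412). The summed level of 7 fibroblast markers was also highest in IM24h *ME* library 4, at 2905 CPM, in a group that ranged from 1111 to 2905 CPM. Its part in the result was not tested.

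*Hcn4*, a hyperpolarisation-activated cation channel best known from the cardiac pacemaker, was counted least of the 7 genes in naïve *ME*. It was measured at 24.42, 19.59 and 24.58 CPM in naïve *ME* and at 17.61, 34.09 and 27.6 CPM at IM3h. The IM24h libraries held 1.601, 4.003, 2.55 and 10.56 CPM and the IM72h libraries 4.539, 10.54, 10.19 and 6.37 CPM. The IM3h group overlapped the naïve group, while every IM24h and IM72h library was below it. EdgeR gave a log2 change of 0.25 (SE 0.22, edgeR adjusted p = 0.420) at IM3h, −2.30 (SE 0.53, adjusted p = 0.00877) at IM24h and −1.57 (SE 0.26, adjusted p = 0.000401) at IM72h. With a library left out, the IM24h value ran from −3.08 without IM24h library 4 to −2.01 without IM24h library 1. It stayed called in each case (edgeR adjusted p of 0.0336 or less).

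*Etv1*, the ETS transcription factor of ICC, was measured at 129.1, 133.7 and 120.2 CPM in naïve *ME*. It stood at 86.37, 81.61 and 81.96 CPM at IM3h, at 141.6, 150.6, 104.7 and 133.7 CPM at IM24h, and at 75.73, 80.76, 71.11 and 81.32 CPM at IM72h. The low levels at IM3h and IM72h did not overlap the naïve levels, whereas the IM24h libraries lay on both sides of them. The log2 change was −0.57 (SE 0.10, edgeR adjusted p = 0.00246) at IM3h, 0.05 (SE 0.16, adjusted p = 0.832) at IM24h and −0.75 (SE 0.11, adjusted p = 0.000130) at IM72h. With division by the library total, the value at IM72h was −0.15 (adjusted p = 0.345). At IM24h a larger share of *Etv1* counts than in naïve mice fell on transcripts annotated as retaining an intron, as given below. In naïve mice *Etv1* was not called lower in *RiboTag* than in *ME* (−0.04, edgeR adjusted p = 0.908). The part of glia and other cells in its *ME* values was not tested.

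*Pdgfra*, the receptor of the second interstitial cell type and also a receptor of fibroblasts, was measured at 88.37, 84.16 and 80.14 CPM in naïve *ME*. It stood at 60.45, 47.81 and 49.87 CPM at IM3h, at 120.9, 102.9, 109.1 and 115.7 CPM at IM24h, and at 100.7, 95.29, 98.96 and 92.43 CPM at IM72h. Every IM3h library was below, and every IM24h and IM72h library above, the naïve range. Relative to naïve *ME* it changed on the log2 scale by −0.62 (SE 0.13, edgeR adjusted p = 0.00454) at IM3h, 0.41 (SE 0.14, adjusted p = 0.0479) at IM24h and 0.17 (SE 0.10, adjusted p = 0.173) at IM72h. The IM24h call did not hold without any of the 3 naïve libraries or without IM24h library 1 or 3 (adjusted p = 0.0700 to 0.201), and the value was 0.05 (adjusted p = 0.924) when scaled to *Actb*, *Hsp90ab1* and *Rplp1*. The IM72h value was 0.78 (adjusted p = 0.000404) with division by the library total but −0.44 (adjusted p = 0.0200) when scaled to *Actb*, *Hsp90ab1* and *Rplp1*. The 7 fibroblast markers summed to 2140 to 2254 CPM in naïve *ME*, 1075 to 1206 CPM at IM3h, 1111 to 2905 CPM at IM24h and 3386 to 4135 CPM at IM72h, with none at 0 in any *ME* library. Their part in the *Pdgfra* values was not tested.

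*Kcnn3*, the potassium channel of the *Pdgfra* cells, was measured at 86.31, 70.6 and 74.21 CPM in naïve *ME*. It stood at 34.24, 24.35 and 33.58 CPM at IM3h, at 68.85, 43.23, 51.83 and 63.5 CPM at IM24h, and at 48.83, 42.68, 52.54 and 50.05 CPM at IM72h. All libraries after IM lay below all naïve libraries, with the lowest at IM3h. The log2 change was −1.28 (SE 0.16, edgeR adjusted p = 0.000190) at IM3h, −0.44 (SE 0.19, adjusted p = 0.102) at IM24h and −0.70 (SE 0.12, adjusted p = 0.000481) at IM72h. The IM72h value was −0.10 (adjusted p = 0.590) with division by the library total.

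Exact two-sided permutation tests on the CPM of single genes gave p = 0.029, the smallest that 4 against 3 libraries allow, for 7 of 7 members at IM72h, where 47.2% of all genes tested reached it, and for 2 of 7 (*Hcn4* and *Pdgfra*) at IM24h, where 24% (3921 of 16328) did. At IM3h, where 3 against 3 libraries cannot go below 0.1, 6 of 7 members (all but *Hcn4*) reached that value by exact permutation, as did 48.2% of all genes tested. In all, 42 such tests were run over both fractions, and these p-values are not adjusted. Nothing in the labels says whether libraries of one group came from separate litters or operating days.

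The scaling moved the median of all genes, and with it several directions. Under division by the library total, the median log2 change of all *ME* genes was −0.26, 0.66 and 0.62 at the 3 times, and scaling to *Actb*, *Hsp90ab1* and *Rplp1* gave −0.41, −0.35 and −0.58. At IM24h the log2 changes of *Kit*, *Kitl*, *Ano1* and *Kcnn3* were 0.29, 0.40, 0.12 and 0.19 by library total, on the other side of zero from the TMM values but below the shifted median of all genes. Also at IM24h, *Etv1* was 0.69 (edgeR adjusted p = 0.00946) by library total and *Kit* −0.79 (adjusted p = 0.0434) when scaled to the 3 named genes. At IM72h the log2 change of *Kit* lay between −1.59 and −0.38 over all scalings.

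**Figure D2:**
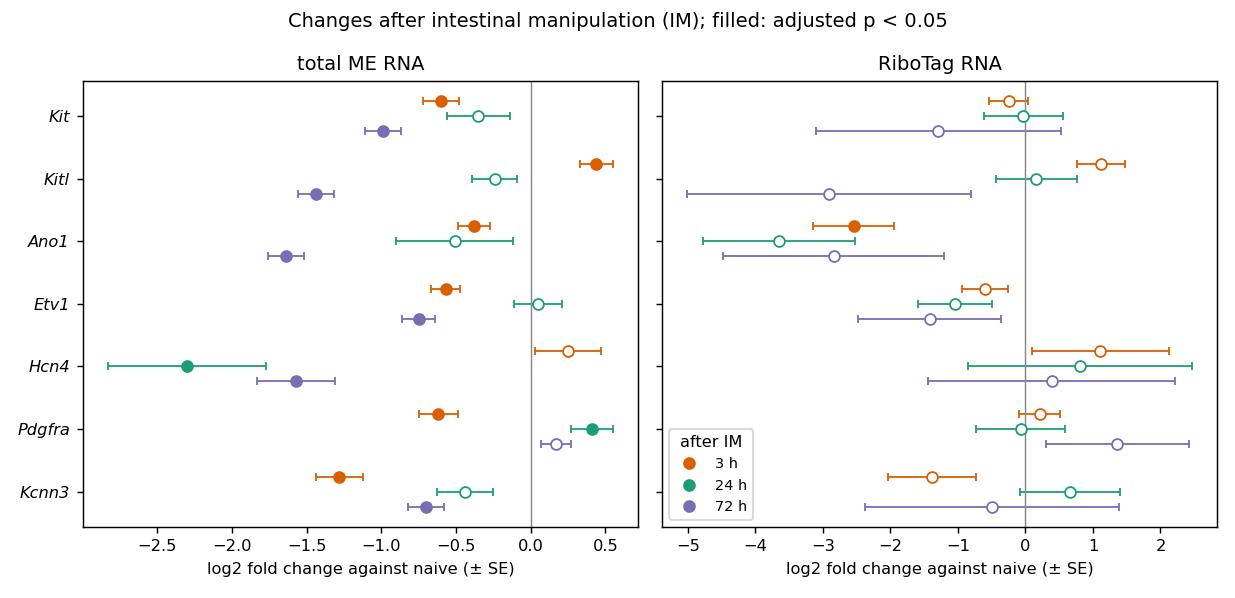
Log2 change of each gene against naïve mice at the 3 times after IM, in total *ME* RNA and in the *RiboTag* fraction, with bars of 1 SE from edgeR. Filled points passed an adjusted p under 0.05. The number of genes that passed in *ME* was 6, 2 and 6 at the 3 times, and in *RiboTag* it was 1 (*Ano1*) at IM3h and 0 later.

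Within the *Sox10* Cre mice, *ME* at IM72h held less *Kit*, *Kitl*, *Ano1* and *Etv1* than *ME* at IM24h. Here 4 of 7 members were called, all of them lower at IM72h, where 38.5% of all genes tested were called, and the median log2 difference (IM72h minus IM24h) of the members was −0.64 beside 0.01 for all genes. The difference was −1.20 (SE 0.15, edgeR adjusted p = 0.000194) for *Kitl* and −0.82 (SE 0.14, adjusted p = 0.00131) for *Etv1*, and the libraries of the 2 time points did not overlap for either gene. It was −0.64 (SE 0.20, adjusted p = 0.0253) for *Kit* and −1.13 (SE 0.35, adjusted p = 0.0257) for *Ano1*. The call of *Kit* was lost without IM24h library 1 or 2 or IM72h library 1, 3 or 4 (adjusted p = 0.0567 to 0.0735) and that of *Ano1* without IM72h library 1, 2 or 3 (adjusted p = 0.0569 to 0.0655). The *Ano1* call was also lost when scaled to *Actb*, *Hsp90ab1* and *Rplp1* (−1.54, edgeR adjusted p = 0.0624). *Hcn4* (0.73, adjusted p = 0.302), *Pdgfra* (−0.25, adjusted p = 0.120) and *Kcnn3* (−0.26, adjusted p = 0.228) did not pass. DESeq2 called *Pdgfra* (−0.25, adjusted p = 0.0480). Without IM24h library 4, *Ano1* was −0.61 and still called by edgeR, and *Hcn4* was 1.51 (adjusted p = 0.0150).

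The ratio of 2 members within a library does not depend on the scaling of that library. The *Kit* to *Pdgfra* count ratio in *ME* was 0.834 to 1.0 in naïve libraries and 0.788 to 1.17 at IM3h. It was 0.402 to 0.771 at IM24h and 0.376 to 0.475 at IM72h, below every naïve library in all 8 later libraries. The *Kcnn3* to *Pdgfra* ratio was 0.839 to 0.977 in naïve libraries and 0.420 to 0.673 in the libraries after IM, with no overlap. The *Kitl* to *Kit* ratio was 2.27 to 2.41 in naïve libraries, 4.17 to 5.75 at IM3h, 2.19 to 3.61 at IM24h and 1.34 to 2.23 at IM72h. The *Etv1* to *Kit* ratio was 1.54 to 1.75 in naïve libraries, 1.46 to 1.81 at IM3h, 1.90 to 2.63 at IM24h and 1.63 to 2.30 at IM72h. The *Ano1* to *Kit* ratio was 1.52 to 1.96 in naïve libraries, 1.72 to 2.35 at IM3h, 0.545 to 3.67 at IM24h and 0.995 to 1.41 at IM72h. These ratios compare change between libraries and say nothing of which gene is the more abundant. They were given no test.

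The transcripts counted under *Kit* did not change together. Transcripts Kit-203, Kit-207 and Kit-208 are annotated as retaining an intron, and Kit-201 and Kit-204 make up the rest. The rest stood at 38.0, 51.2 and 49.0 CPM in naïve *ME* and at 13.5, 13.4, 15.4 and 14.9 CPM at IM72h, which is 0.31 times the naïve mean. The retained-intron transcripts stood at 35.7, 32.9 and 29.2 CPM in naïve *ME* and at 24.3, 31.8, 28.2 and 20.5 CPM at IM72h, or 0.804 times the naïve mean. In share of all *Kit* counts, they made up 37.4 to 48.4% in naïve libraries, 31.9 to 43.3% at IM3h, 11.4 to 34.0% at IM24h and 57.8 to 70.3% at IM72h. The share was thus lower than in naïve mice in all 4 IM24h libraries and higher in all 4 IM72h libraries. The IM24h rest was 38.8 to 62.3 CPM, overlapping the naïve range. This split was looked at after the values were seen and was not tested. The libraries sample 3′ ends, the authors' estimation divided reads among overlapping transcripts, and the transcript types come from GENCODE vM21 rather than from the annotation the authors counted. By the same annotation, transcripts with a retained intron held 94.6% or more of *Kcnn3* counts in *ME*. Of *Etv1* counts they held 41.3 to 45.3% in naïve libraries, 37.9 to 52.7% at IM3h, 64.8 to 71.9% at IM24h and 51.8 to 63.4% at IM72h. The *Etv1* share was thus higher than in naïve mice in every IM24h and IM72h library, and this was not tested either.

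**Figure D3:**
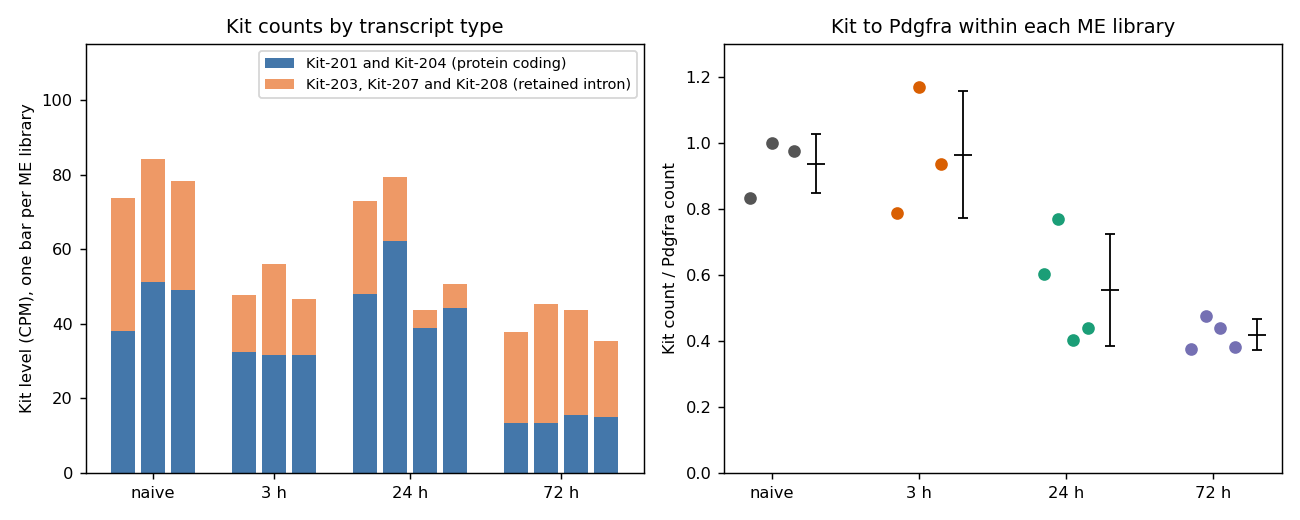
Left, *Kit* CPM in each *ME* library, stacked by transcripts annotated as protein coding and as retaining an intron. Right, ratio of *Kit* to *Pdgfra* counts in each *ME* library, with the group mean ± SD beside the points. The protein-coding part is 13.4 to 15.4 CPM at IM72h against 38.0 to 51.2 CPM in naïve mice, and the ratio falls from 0.834 to 1.0 in naïve libraries to 0.376 to 0.475 at IM72h.

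Genes of the pathways around the members were counted from lists of named genes, each value being a log2 change in *ME* against naïve with its edgeR adjusted p. Of 10 genes of Kit signalling, 4 were higher and 1 lower at IM3h, at IM24h 3 were higher and 2 lower, and IM72h had 3 higher and 6 lower. *Ptpn6*, a phosphatase that restrains Kit and is abundant in leukocytes, was higher by 2.83 (adjusted p = 4.65e-05) at IM24h and by 2.88 (adjusted p = 3.55e-07) at IM72h. *Lyn*, a Src family kinase also common in leukocytes, was higher by 3.12 (adjusted p = 5.15e-05) and 2.54 (adjusted p = 5.56e-07) at these times. *Socs6*, an adaptor that targets Kit for degradation, fell by 1.28 (adjusted p = 9.38e-06) at IM72h. By library total, this list had 6 higher and 0 lower at IM24h and 4 higher and 2 lower at IM72h. The leukocyte markers in *ME* moved as well. The 4 neutrophil markers in the table summed to 0.363 to 0.861 CPM in naïve libraries, 21.94 to 31.28 CPM at IM3h, 42.71 to 189.5 CPM at IM24h and 17.31 to 50.35 CPM at IM72h. The 6 macrophage markers summed to 157.6 to 192.2 CPM in naïve libraries, 117.5 to 145.1 CPM at IM3h with 2 of 6 called lower, 233.9 to 739.5 CPM at IM24h and 475.1 to 540.3 CPM at IM72h. Their part in the result was not tested.

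Of 13 genes of pacemaker calcium and ion transport, none rose and 2 fell at IM3h (7 fell by library total and 9 when scaled to *Actb*, *Hsp90ab1* and *Rplp1*), none rose and 7 fell at IM24h, and 2 rose and 9 fell at IM72h. At IM24h these included *Slc12a2*, the chloride-loading cotransporter that serves the Ano1 current (−1.24, adjusted p = 0.00110), the ryanodine receptor *Ryr2* (−1.08, adjusted p = 0.00218) and the inositol trisphosphate receptor *Itpr1* (−0.92, adjusted p = 0.00406). At IM72h the smallest adjusted p-values belonged to *Stim1*, the sensor of store-operated calcium entry (−1.73, adjusted p = 5.03e-06), *Itpr1* (−0.89, adjusted p = 2.86e-05) and the L-type calcium channel *Cacna1c* (−1.45, adjusted p = 3.85e-05). By library total, the counts were 1 higher and 1 lower at IM24h and 2 higher and 4 lower at IM72h, while scaling to *Actb*, *Hsp90ab1* and *Rplp1* gave 4 lower at IM24h and 1 higher and 11 lower at IM72h. Several of these genes are also expressed by smooth muscle, whose 7 markers summed to 22140 to 23750 CPM in naïve *ME*, 16690 to 19880 CPM at IM3h, 3245 to 10820 CPM at IM24h and 12400 to 20520 CPM at IM72h. The part of smooth muscle in these results, and in those of *Kitl*, was not tested.

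Among 6 genes that receive nerve signals, none rose, and 3, 2 and 3 fell at the 3 times. *Chrm2*, the M2 muscarinic receptor, changed by −1.44 (adjusted p = 3.02e-05), −1.64 (adjusted p = 0.000267) and −3.09 (adjusted p = 1.75e-07) at the 3 times. *Gucy1b1*, a subunit of the nitric oxide receptor guanylyl cyclase, changed by −0.88 (adjusted p = 0.000750), −0.49 (adjusted p = 0.0327) and −1.37 (adjusted p = 7.23e-06), with 0.16 (adjusted p = 0.450) at IM24h by library total. Its partner subunit *Gucy1a1* changed by −1.47 (adjusted p = 6.44e-06) at IM3h and −1.27 (adjusted p = 9.25e-06) at IM72h. Both gap junction genes tested, *Gja1* (−1.06, adjusted p = 6.81e-05) and *Gjc1* (−0.86, adjusted p = 0.000323), fell at IM72h, and *Gjc1* also at IM24h (−1.14, adjusted p = 0.00389). By library total *Gjc1* was not called at IM24h (−0.50, adjusted p = 0.0999) or IM72h (−0.25, adjusted p = 0.189). At IM3h neither gap junction gene was called, while 1 was lower by library total and both when scaled to *Actb*, *Hsp90ab1* and *Rplp1*. Of the 6 genes that receive nerve signals, library total gave 3 higher and 3 lower at IM72h, and scaling to *Actb*, *Hsp90ab1* and *Rplp1* gave 6 lower.

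Of 3 further ICC markers, none was called at IM3h (1 lower by library total and 2 when scaled to *Actb*, *Hsp90ab1* and *Rplp1*), the kinase *Prkcq* fell at IM24h (−0.86, adjusted p = 0.0112, but −0.23, adjusted p = 0.458, by library total), and at IM72h the ectonucleotidase *Entpd2* (0.93, adjusted p = 0.00128) and the matrix protein *Thbs4* (0.82, adjusted p = 0.00142) were higher, although none was called higher at IM72h when scaled to *Actb*, *Hsp90ab1* and *Rplp1*. *Entpd2* is also known from enteric glia, and of the 8 glial markers in *ME* 3 were higher and 2 lower at IM72h, with a sum of 157.7 to 308.7 CPM against 119.9 to 143.6 CPM in naïve mice. Their part in the result was not tested. Of the relatives and feedback targets of *Etv1*, 3 of 4 tested were higher at IM3h, 2 of 4 at IM24h, and 4 of 5 at IM72h with 1 lower, while scaling to *Actb*, *Hsp90ab1* and *Rplp1* left none called at IM24h. *Spry2*, a feedback inhibitor of receptor tyrosine kinase signalling, was higher by 2.52 (adjusted p = 3.43e-06) at IM3h, and the ETS factors *Etv5* and *Etv4* by 1.27 (adjusted p = 2.24e-05) and 4.61 (adjusted p = 3.29e-05) at IM72h.

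Of 5 PDGF family genes tested, none was called at IM3h (2 lower when scaled to *Actb*, *Hsp90ab1* and *Rplp1*), IM24h had 1 higher (*Pdgfrb*) and 1 lower, and IM72h 2 in each direction. The ligand *Pdgfa* fell at IM24h (−1.44, adjusted p = 0.000358) and IM72h (−1.19, adjusted p = 1.18e-05), *Pdgfrb* was higher at IM24h (0.73, adjusted p = 0.0374), and at IM72h *Pdgfc* was higher (1.0, adjusted p = 0.000604) and *Pdgfd* lower (−2.03, adjusted p = 0.00439). When scaled to *Actb*, *Hsp90ab1* and *Rplp1*, none of these genes was called higher. Among 4 relatives and partners of *Kcnn3*, 2 passed, both at IM72h: *Kcnn4*, a channel also found in leukocytes, was higher (2.09, adjusted p = 0.000368) and *Kcnn2* lower (−1.85, adjusted p = 0.00171). At IM3h, 1 of the 3 tested was called lower by library total and 2 when scaled to *Actb*, *Hsp90ab1* and *Rplp1*.

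The genes whose log2 CPM followed *Kit* most closely over the 14 *ME* libraries, among 17919 genes, were *Narf* (Pearson's r = 0.93), *Tafa1* (0.915) and *Gucy1b1* (0.894). For *Pdgfra* they were *Fam217b* (0.971), *Tmpo* (0.963) and *Fam174a* (0.963). The libraries share 4 time points and the shift in AY036118, so these values are descriptions.

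In naïve mice the *RiboTag* fraction held less *Kitl*, *Kit*, *Ano1*, *Pdgfra* and *Kcnn3* than total *ME* RNA. Of the 7 members, 5 were called, all lower, where 26.1% of all genes tested were called (3862 genes, and 1925 to 4727 with a library left out, with each naïve *ME* library moving it by over 1.5 times), and the median log2 difference (*RiboTag* minus *ME*) of the members was −1.41 beside −0.01 for all genes. *Kitl* was at 14.74, 29.82 and 30.94 CPM in *RiboTag* against 177.7 to 191.4 CPM in *ME* (−2.53, SE 0.27, edgeR adjusted p = 0.000422). *Pdgfra* was at 19.06, 24.4 and 25.13 CPM against 80.14 to 88.37 CPM (−1.52, SE 0.18, adjusted p = 0.000629). The CPM were scaled within each fraction, so these levels do not give the fitted differences, and no overlap between fractions is read from them. The fitted differences come from one scaling over the naïve libraries of both fractions.

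*Kit* was at 33.8, 23.72 and 39.84 CPM in naïve *RiboTag* (−0.92, SE 0.21, edgeR adjusted p = 0.0136), *Kcnn3* at 9.148, 32.76 and 26.2 CPM (−1.41, SE 0.38, adjusted p = 0.0257) and *Ano1* at 53.49, 77.38 and 82.04 CPM (−0.62, SE 0.19, adjusted p = 0.0416). *Etv1*, at 74.46, 116.5 and 101 CPM, did not pass (−0.04, SE 0.19, adjusted p = 0.908). *Hcn4*, at 0, 8.472 and 2.964 CPM, did not pass (−2.22, SE 0.91, adjusted p = 0.104). The smooth muscle markers, which the tagged cells should lack, still summed to 4911 to 7560 CPM in naïve *RiboTag*, and 5 of these 7 genes were lower than in *ME* (median −1.33). The naïve mice of the 2 fractions also differed in Cre line, and this cannot be told apart from the fraction. The call of *Ano1* was lost without any one of the naïve *ME* libraries (adjusted p = 0.133, 0.0703 and 0.136), as was that of *Kcnn3* (0.0837, 0.0632 and 0.0661) and, without naïve *ME* library 2 or 3, that of *Kit* (0.0511 and 0.0518). *Kcnn3* also lost it without naïve *RiboTag* library 3 (0.0593), while *Hcn4* passed without naïve *RiboTag* library 1 (−1.68, adjusted p = 0.0219) or 2 (−3.59, adjusted p = 0.0287). By library total, *Kitl* and *Pdgfra* were still called lower, whereas *Kit* (−0.19, adjusted p = 0.549), *Kcnn3* (−0.64, adjusted p = 0.265) and *Ano1* (0.12, adjusted p = 0.728) were not called, and *Etv1* was called higher (0.72, adjusted p = 0.0356). With all libraries of both fractions in one fit no member was called.

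After IM the *RiboTag* libraries gave 1 called member, *Ano1*, which fell at IM3h. Markers of other cell types were also lower in these IM3h libraries. The smooth muscle markers summed to 1957 to 5052 CPM at IM3h against 4911 to 7560 CPM in naïve libraries, with 3 of 7 called lower, and the mesothelial markers to 6.972 to 68.22 CPM against 84.3 to 238.6 CPM, with 3 of 4 called lower. At IM24h the smooth muscle sum was 1437 to 4034 CPM and at IM72h 2083 to 8791 CPM. The part of these cells in the *Ano1* values was not tested. At IM3h 13.3% of all genes tested were called, at IM24h 0.497% and at IM72h 16.1%. These are 2134, 76 and 2191 genes, and with a library left out the numbers ran from 1100 to 2849, from 0 to 483 and from 1288 to 3831. They were lowest without naïve library 3 at IM3h and IM72h and without IM24h library 2 or 4 at IM24h, and highest without IM3h library 4, IM24h library 1 and IM72h library 2. At IM24h edgeR called 0 of 7 members, with 1 (*Ano1*) at an unadjusted p under 0.05, beside 13.2% of all genes tested, and at IM72h 0 of 7, with 0 at an unadjusted p under 0.05, beside 22.6%. DESeq2 called 0 members at both of these times. The median log2 change of the members was −0.25 at IM3h, −0.03 at IM24h and −1.29 at IM72h, beside −0.04, −0.11 and −0.40 for all genes. The 3 comparisons share the same 3 naïve libraries.

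**Figure D4:**
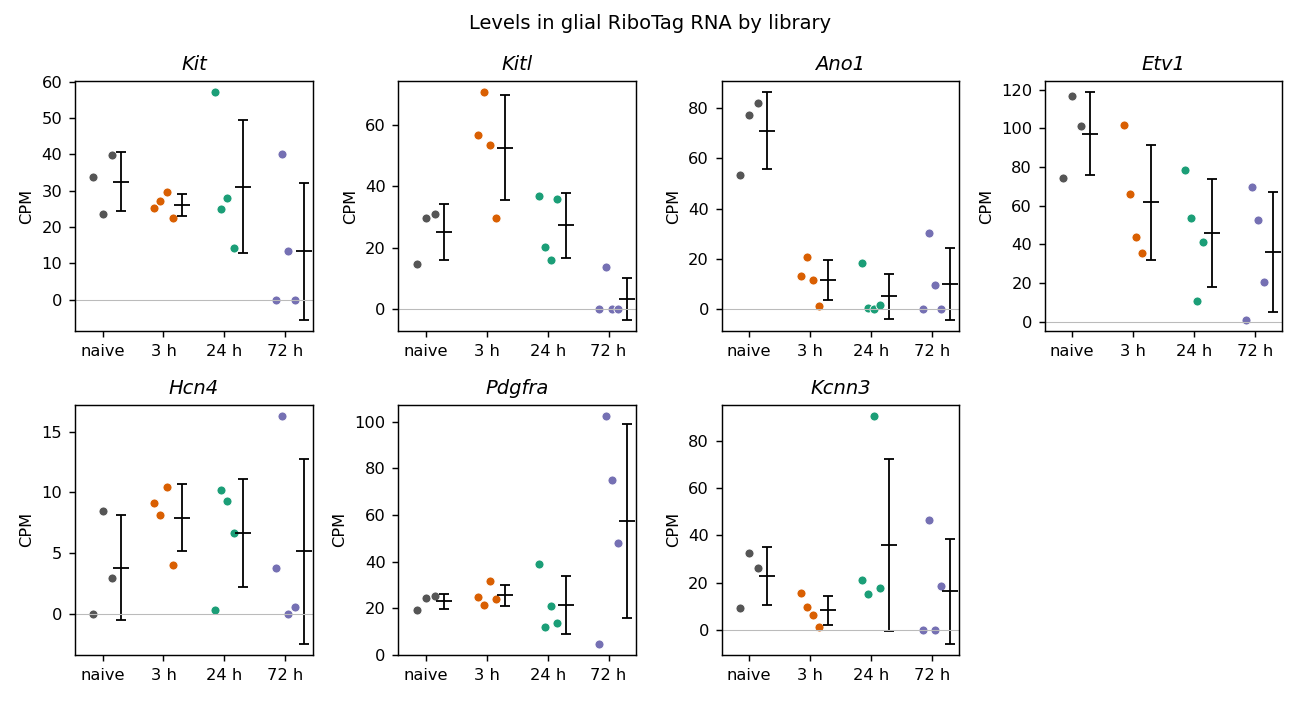
Levels of the 7 genes in the *RiboTag* fraction, in CPM after TMM scaling, 1 panel per gene. Points are single libraries, and the crossbar and error bar beside them are the group mean ± SD, in naïve mice (n = 3) and at each time after IM (n = 4). *Ano1* lies between 53.49 and 82.04 CPM in naïve libraries and at 30.35 CPM or less in every library after IM.

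*Ano1* stood at 13.22, 20.53, 11.63 and 1.215 CPM at IM3h, at 18.51, 0.4087, 0 and 1.528 CPM at IM24h, and at 0, 30.35, 9.602 and 0 CPM at IM72h in *RiboTag*. No library after IM reached the lowest naïve library, at 53.49 CPM. EdgeR gave a log2 change of −2.54 (SE 0.60, edgeR adjusted p = 0.0160) at IM3h, −3.65 (SE 1.12, adjusted p = 0.152) at IM24h and −2.84 (SE 1.64, adjusted p = 0.405) at IM72h, and the exact permutation p was 0.029, the smallest possible, at each time, a value that 19.6, 11.6 and 24.5% of all genes tested reached. The IM3h call was lost without IM3h library 3 (adjusted p = 0.0507) or naïve library 2 (0.0534) or 3 (0.0647). At IM24h the change was −6.46 (adjusted p = 0.00606) without IM24h library 1. At IM72h it was −4.63 without IM72h library 2, the library low in glial markers, and −2.41 without IM72h library 1. The libraries with no count could hold up to 1.33 CPM at IM24h and up to 1.43 and 1.85 CPM at IM72h, which is what 3 counts come to, for counting error only.

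*Kitl* stood at 56.73, 70.58, 53.61 and 29.62 CPM at IM3h in *RiboTag*, against 14.74 to 30.94 CPM in naïve libraries. Libraries 1, 2 and 3 were above the naïve range and library 4 within it, and the log2 change was 1.12 (SE 0.36, edgeR adjusted p = 0.0614). DESeq2 gave 1.10 (adjusted p = 0.0257), and edgeR without IM3h library 4 gave 1.32 (adjusted p = 0.0131). At IM24h *Kitl* stood at 36.89, 20.44, 15.96 and 35.9 CPM (0.16, SE 0.60, adjusted p = 0.947), with libraries 2 and 3 within the naïve range and libraries 1 and 4 above it. At IM72h it was counted in 1 of 4 libraries, at 13.64 CPM in library 2, the library low in glial markers, and at 0 in the others, where 3 counts come to 1.43 to 2.88 CPM. The log2 change at IM72h was −2.91 (SE 2.10, adjusted p = 0.557) with library 2 and −9.99 (adjusted p = 0.0190) without it, the latter a fitted value against libraries all at 0 and no measure of size.

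*Kit* stood at 25.12, 27.13, 29.77 and 22.61 CPM at IM3h in *RiboTag*, at 57.04, 24.93, 27.94 and 14.32 CPM at IM24h, and at 0, 40.03, 13.44 and 0 CPM at IM72h. The IM3h and IM24h values overlapped the naïve ones, and the IM72h libraries were on both sides of them. The log2 changes were −0.25 (SE 0.29, edgeR adjusted p = 0.650), −0.03 (SE 0.58, adjusted p = 0.993) and −1.29 (SE 1.82, adjusted p = 0.830). The highest of the IM72h values was again in library 2. The log2 change at IM72h was −2.97 without IM72h library 2 and −0.86 without IM72h library 1. Transcripts annotated as retaining an intron held 22.9 to 34.3% of *Kit* counts in naïve *RiboTag* libraries, 18.1 to 63.2% at IM3h, 32.0, 90.2, 100 and 19.5% at IM24h, and all *Kit* counts in the 2 IM72h libraries that had any.

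*Etv1* stood at 101.7, 66.09, 43.61 and 35.51 CPM at IM3h in *RiboTag*, at 78.31, 53.54, 10.64 and 41.05 CPM at IM24h, and at 0.9507, 69.5, 52.81 and 20.31 CPM at IM72h. Most of these libraries were below the naïve range of 74.46 to 116.5 CPM. No change passed the test (edgeR adjusted p = 0.296, 0.463 and 0.577). *Hcn4* was between 0 and 16.27 CPM in all *RiboTag* libraries and did not pass at any time (adjusted p = 0.551, 0.899 and 0.961).

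*Pdgfra* stood at 24.73, 21.3, 31.75 and 23.83 CPM at IM3h in *RiboTag*, at 39.03, 11.85, 20.84 and 13.37 CPM at IM24h, and at 4.754, 102.5, 74.9 and 48.02 CPM at IM72h. At IM72h 3 libraries were above the naïve range of 19.06 to 25.13 CPM and library 1 below it. The log2 change was 0.21 (SE 0.30, edgeR adjusted p = 0.720), −0.07 (SE 0.66, adjusted p = 0.982) and 1.36 (SE 1.06, adjusted p = 0.600). *Kcnn3* stood at 15.77, 9.838, 6.28 and 1.402 CPM at IM3h (−1.39, SE 0.65, adjusted p = 0.197), at 21.03, 15.12, 90.47 and 17.57 CPM at IM24h (0.66, SE 0.74, adjusted p = 0.794) and at 0, 46.63, 0 and 18.47 CPM at IM72h (−0.50, SE 1.88, adjusted p = 0.950). All 3 groups overlapped the naïve range of 9.148 to 32.76 CPM. The fibroblast markers in *RiboTag* summed to 689.8 to 843.3 CPM in naïve libraries, 232.2 to 356.6 CPM at IM3h, 202.2 to 821.0 CPM at IM24h and 407.1 to 1064 CPM at IM72h, and their part in the *Pdgfra* and *Kcnn3* values was not tested.

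Whether a member changed differently in *RiboTag* than in *ME* was tested as an interaction of fraction and time. EdgeR called 0 of 7 members at IM3h, IM24h and IM72h, where 1.66, 0.537 and 23.3% of all genes tested were called, with 2, 1 and 0 members at an unadjusted p under 0.05, beside 14.7, 13.5 and 33.2% of all genes. With a library left out, 80 to 662 genes were called at IM3h (292 with all libraries), 6 to 853 at IM24h (94) and 3133 to 6216 at IM72h (3843), lowest at each time without naïve *ME* library 2 and highest without *RiboTag* IM3h library 4, IM24h library 1 and IM72h library 2. DESeq2 called 1 member at IM3h, *Ano1* (−2.16, adjusted p = 0.0496), and none at the later times. The difference in log2 change (*RiboTag* minus *ME*) at IM3h was −2.09 (SE 0.70, edgeR adjusted p = 0.157) for *Ano1* and 0.92 (SE 0.29, adjusted p = 0.136) for *Pdgfra*. At IM24h it was −3.04 (SE 1.17, adjusted p = 0.252) for *Ano1* with all libraries. Without *RiboTag* IM3h library 4 the *Ano1* value at IM3h was −1.70 (adjusted p = 0.00882), and without *RiboTag* IM24h library 1 that at IM24h was −6.04 (adjusted p = 0.00143). The median difference of the members was 0.43, 0.34 and −0.45 at the 3 times, beside 0.02, −0.15 and −0.98 for all genes.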

How the data were processed

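Per the methods and labels, the authors prepared 3′ end libraries, sequenced them single-end, trimmed reads with cutadapt and aligned them to mm10 with STAR in Partek. The authors deposited estimated counts per gene for *ME* and per transcript for *RiboTag*, not scaled for library size. Tables of the authors' own comparisons (group means, ratios, p-values) were not used. The *RiboTag* tables held 3 naïve libraries where the labels give 4, the same 3 in each table. Their transcripts were summed per gene symbol. Library names carry no replicate number, so libraries were placed in groups by the group entry of the tables.

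Counts were rounded and tested with edgeR 4.0.16 (TMM, filterByExpr, quasi-likelihood test, Benjamini-Hochberg over all genes, threshold 0.05) in R 4.3.3, within the groups compared, in 11 comparisons. DESeq2 1.42.0, other scalings, no filter, one fit over all libraries and leaving out each library were tried. SciPy 1.17.1 gave exact permutation tests. The scripts were tested on simulated data. The members and lists were chosen with earlier results of these data known. Genes named from a list are at most the 3 with the smallest adjusted p among those called, or repeat such a gene at another time. Intervals for a count of 0 cover counting error only. The result of one further gene list is not reported here.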

Additional observations from a re-analysis of the deposited data

Results flagged for a closer look

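Of 35 sets of 4 libraries tested by Dixon's criterion, 1 per member and group of 4, 3 had a library far from the others, and chance flags about 1 in 20 such sets. All 3 were in *RiboTag* libraries. *Ano1* at IM24h was 18.51 CPM in library 1 against 0 to 1.528 CPM in the other 3, a gap of 0.917 of the group's range. *Kcnn3* at IM24h was 90.47 CPM in library 3 against 15.12 to 21.03 CPM in the others, a gap of 0.922 of the range. *Kitl* at IM72h was 13.64 CPM in library 2 and 0 in the others, a gap of 1.0 of the range, which any count above 0 would have given there, so this flag carries no weight against the rate expected by chance.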

How the results depend on the processing

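Of the members' log2 changes (for the interactions, those of *Ano1* and *Pdgfra* only) under other tools, scalings and filters, 412 kept direction and side of the threshold, 26 lost the call, 9 gained one and 28 reversed. With a library left out the numbers were 415, 28, 9 and 14. The number of members called moved by more than 1.5 times in these cases. The share of all genes called under the same settings is not given beside these counts. They show only where calls of members moved. At IM3h in *RiboTag* it was 2 with DESeq2 or without the low-count filter and 0 when scaled to *Actb*, *Hsp90ab1* and *Rplp1* or with all libraries in one fit. At IM24h in *ME* it was 1 with DESeq2's size factors in edgeR or without the filter. For naïve *RiboTag* against *ME* it was 3 by library total, 2 with *Actb*, *Hsp90ab1* and *Rplp1*, 0 in one fit and 2 by library total without AY036118, a setting chosen after seeing the data. The interaction gave 1 at IM3h with DESeq2 and 1 at IM72h by library total, a setting that moved the median of all genes in that interaction to −3.06.

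With a library left out, the number of members called was 4 to 6 in *ME* at IM3h (3750 to 4510 of all genes), 1 to 3 at IM24h (2790 to 5972), 6 at IM72h (8456 to 9634) and 2 to 5 between IM72h and IM24h (4874 to 7166). In *RiboTag* it was 0 to 2, 0 to 1 and 0 to 1 at the 3 times (1100 to 2849, 0 to 483 and 1288 to 3831 of all genes), between the naïve fractions 2 to 6 (1925 to 4727), and for each interaction 0 to 1 (80 to 662, 6 to 853 and 3133 to 6216).

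Directions reversed by scaling were as follows, in log2. By library total they were *Hcn4* −0.02 at IM3h and *Kit* 0.29, *Kitl* 0.40, *Ano1* 0.12 and *Kcnn3* 0.19 at IM24h in *ME*, *Pdgfra* −0.01 at IM3h, *Kitl* −0.61, *Hcn4* −0.54 and *Kcnn3* −0.54 at IM24h and *Hcn4* −1.17 and *Pdgfra* −0.47 at IM72h in *RiboTag*, *Ano1* 0.12 and *Etv1* 0.72 between the naïve fractions, and *Pdgfra* −1.24 in the IM72h interaction. With *Actb*, *Hsp90ab1* and *Rplp1* they were *Hcn4* −0.17 at IM3h, *Etv1* −0.33 at IM24h and *Pdgfra* −0.44 at IM72h in *ME*, *Pdgfra* −0.23 at IM3h, *Kitl* −1.18, *Hcn4* −1.48 and *Kcnn3* −1.23 at IM24h and *Hcn4* −1.46 and *Pdgfra* −0.26 at IM72h in *RiboTag*, and *Etv1* 0.11 between the naïve fractions. By library total without AY036118 they were *Kitl* 0.08 at IM24h in *ME*, *Pdgfra* −0.03 at IM3h and *Kitl* −0.04 at IM24h in *RiboTag*, and *Etv1* 0.44 between the naïve fractions. These settings moved the median of all *RiboTag* genes to −0.96 and −1.51 at IM24h and to −2.13 and −2.07 at IM72h (by library total and by the 3 genes), and that between the naïve fractions to 0.73 by library total. The cause of the reversals was not tested beyond this.

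With a library left out, directions reversed for *Hcn4* at IM3h (−0.02 to 0.47) and *Etv1* at IM24h (−0.01 to 0.16) in *ME*, for *Kit* (−0.49 to 0.21), *Kitl* (−0.14 to 0.36), *Pdgfra* (−0.53 to 0.14) and *Kcnn3* (−0.29 to 1.03) at IM24h and *Hcn4* at IM72h (−0.22 to 1.72) in *RiboTag*, and for *Etv1* between the naïve fractions (−0.22 to 0.08). None of these was a called value. In the *RiboTag* libraries with no count of a member, that count of 0 allows a level of up to 3 counts, or 0.381 to 2.88 CPM. No paired analysis was possible because the library names carry no replicate number. Summing *ME* transcripts per gene was tried for the comparisons that use *ME* and gave no value for those within *RiboTag*, which are such sums already.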
